A study of Homo sapiens with 3 samples.

Results

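RNA that H9 cells carried on polysomes was compared, gene by gene, with RNA of the same extract that was free of polysomes. The comparison rests on 2 of the 3 arrays of the study, 1 of polysome-bound RNA and 1 of polysome-unbound RNA, and the third array, of total RNA, is used only to place the genes. H9 is an established line of human embryonic stem cells, and all 3 samples came from pluripotent culture with no other treatment named. RNA of both polysome pools was purified with the same kit (PureLink), and total RNA with another (RNeasy Plus). A gene is represented by a probe set with exactly 1 gene symbol, the brightest where there are several, which gave 18417 genes. Of these, 12063 passed a filter on level (a mean over the 3 arrays above 3.84, log2), and 11496 of the genes that passed are protein coding. With 1 array on each side no difference could be checked against replicates, and no test was made.

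A polysome is an mRNA with several ribosomes on it, and in a polysome extract the heavy fractions hold mRNAs under active translation. The unbound pool holds mRNAs at rest together with RNAs that are not translated, such as the small RNAs of splicing and of ribosome assembly. Messages of ribosomal proteins and of many translation factors begin with a C and a run of pyrimidines, the terminal oligopyrimidine (TOP) motif, through which LARP1 and mTOR signalling move them on and off ribosomes together.

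A difference below is the log2 level on the bound array minus that on the unbound array, after each array was centred on its own median over the 12063 genes. Those medians were 7.23 (bound), 5.96 (unbound) and 6.20 (total RNA), so centring took 1.26 off each deposited difference of bound minus unbound. The level of 483 tissue-restricted genes, such as odorant receptors, served as background. Its 95th percentile stood at 4.40 in bound, 3.56 in unbound and 3.76 in total RNA. Of 11 pluripotency markers with a probe set of their own, all 11 were above background on both fraction arrays, with LIN28A, the RNA-binding protein that blocks let-7, at 11.50 bound and 10.98 unbound and the transcription factor SOX2 at 9.31 and 8.56. Markers of other cell types were also above background, 6 of 7 for liver or yolk sac on each fraction array, 5 of 6 for trophoblast, 6 of 7 for fibroblast and 3 of 4 for neural cells. The sources used here do not give how polysomes were separated.

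At a threshold of 2-fold, 766 genes (6.35%) lay higher in bound RNA and 1196 (9.91%) lay lower, a split with 39.0% on the bound side. The lower side reached much farther. Of the genes lower in bound, 251 were at least 4-fold and 75 at least 8-fold lower, against 17 and 0 of those higher. The share on each side depends on the scaling. As deposited, 7404 genes (61.4%) were 2-fold higher and 188 (1.56%) lower, which puts 97.5% on the bound side. The median of all genes was then 1.20, and values below are on the centred scale unless they are called deposited. Quantile normalization gave 975 higher (8.07%) and 1050 lower (8.7%), with 48.1% on the bound side. Centring over all named genes gave 972 (8.06%) and 1011 (8.38%), with 49.0% on that side, and removal of a lowess trend 769 (6.37%) and 1125 (9.33%), with 40.6%. Protein-coding genes alone gave 754 higher (6.56%) and 990 lower (8.61%).

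**Figure D1:**
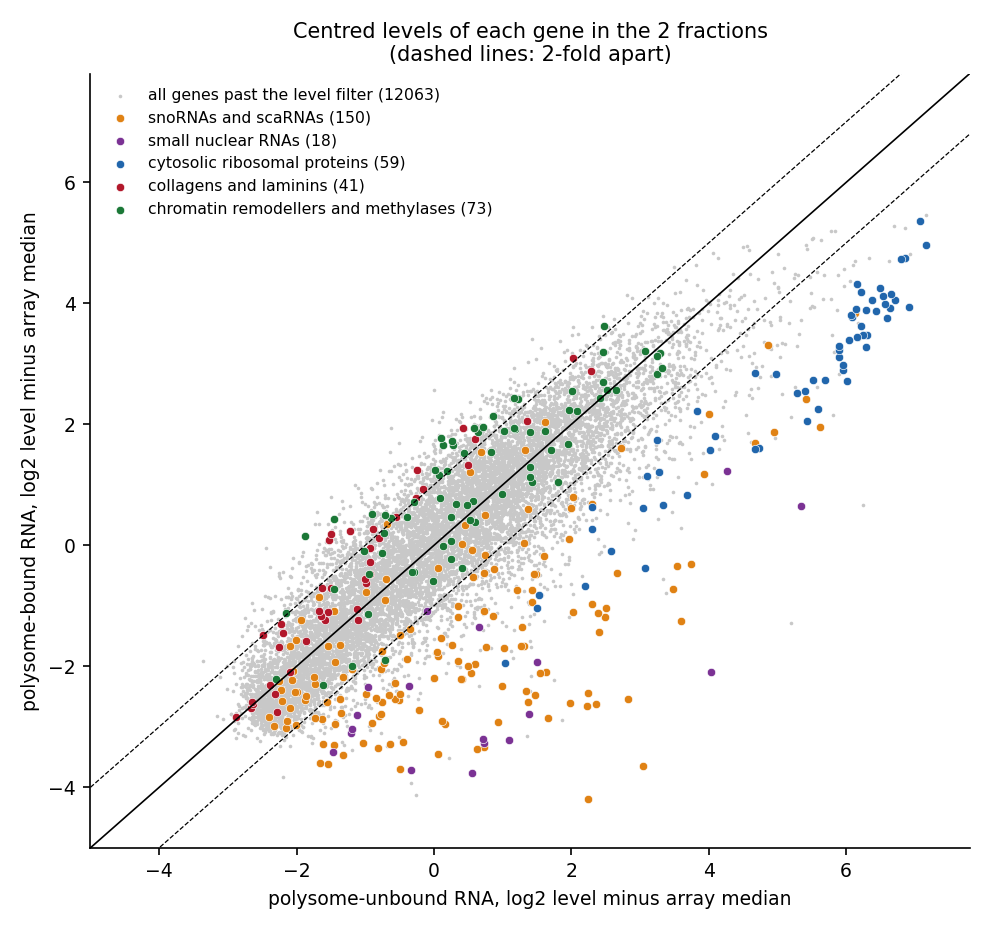
Each point is a gene past the level filter (12063), with its centred log2 level in unbound RNA on the horizontal axis and in bound RNA on the vertical axis; coloured points are members of 5 gene lists, and dashed lines mark 2-fold. The 59 ribosomal proteins lie below the lower dashed line, as do 17 of 18 small nuclear RNAs and 106 of 150 small nucleolar and Cajal body RNAs. Collagens, laminins and chromatin genes lie mostly above the diagonal.

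With no replicate array, the spread within the arrays can be read from genes that have several probe sets. In 364 genes, 2 probe sets passed the level filter. They differed from each other by a median of 0.18 and by 1.05 at the 90th percentile (SD 0.49 per probe set), and 44 pairs were 2-fold or more apart. In 32 of the 364 the values were identical to within 0.0001. A difference of a single gene near the threshold is therefore within what another probe set of the same gene could show. Among the 2-fold genes named in the text, 2 probe sets were at least 2-fold apart for 9, namely the signalling enzyme PLCG2 (-3.61 for the brighter and -0.38 for the other), the adaptor SH3KBP1 (-3.0 and 0.28), the elongation factor subunit EEF1D (-2.10 and 0.53), the splicing protein SNRPG (1.16 and -1.94), KMT2A (1.47 and -0.66), the initiation factors EIF4A2 (-1.26 and 0.59) and EIF3F (-2.63 and -0.95), TPT1 (-3.06 and -2.03) and HECTD4 (1.75 and 0.74).

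The first transcribed bases are shown for genes with a pyrimidine run, for relatives without it, and for MAT2A and ACVR2B, which lie far to either side without it. Each sequence gives 10 bases before and 20 bases from the start that RefSeq lists first (assembly GRCh38.p14), and capitals mark an unbroken run of C or T that begins with C at the start base.
RPS21 (chr20:62387093-62387122, plus strand): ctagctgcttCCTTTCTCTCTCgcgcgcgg
RPS13 (chr11:17077648-17077677, minus strand): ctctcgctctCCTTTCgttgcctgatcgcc
EEF2 (chr19:3985444-3985473, minus strand): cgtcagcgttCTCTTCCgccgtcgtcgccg
EEF1A1 (chr6:73521013-73521042, minus strand): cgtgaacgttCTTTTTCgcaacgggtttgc
EIF3F (chr11:7987327-7987356, plus strand): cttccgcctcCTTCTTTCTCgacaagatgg
EIF3D (chr22:36529147-36529176, minus strand): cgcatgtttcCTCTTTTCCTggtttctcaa
EIF3M (chr11:32583821-32583850, plus strand): gcccagttccCTTTTCCggtcggcgtggtc
EIF3B (chr7:2354817-2354846, plus strand): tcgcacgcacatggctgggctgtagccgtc
EIF3I (chr1:32222397-32222426, plus strand): ttccggtcttactcacgttgcggccttcct
EIF2S3 (chrX:24054946-24054975, plus strand): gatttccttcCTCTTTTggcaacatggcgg
EIF2S1 (chr14:67360318-67360347, plus strand): gaggttccgcatgcgcggtggagtgagcga
QARS1 (chr3:49104738-49104767, minus strand): gcctaagtttCTTTTagtttccggtgtctc
KARS1 (chr16:75647646-75647675, minus strand): tatcctccttacttttgggtcgggccctcc
DPH5 (chr1:101025765-101025794, minus strand): cggcgtgggcCTTTTCTCTgcacggagccg
PFDN5 (chr12:53295532-53295561, plus strand): gagagacttcCTCTTCgttaagtcggcctt
FBL (chr19:39846360-39846389, minus strand): cgcctgcgctCTTTTCCacgtgcgaaagcc
MAT2A (chr2:85539158-85539187, plus strand): ccgctgcttcgttcgctccgcgccgcccgc
ACVR2B (chr3:38453880-38453909, plus strand): tttccccgctggctcggctccgtggccgcc

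Genes with such a run were lower in bound RNA as a group. The run was taken as C at the start base followed by at least 4 more C or T on the transcribed strand, and 4.04% of the 27305 first starts that RefSeq lists hold it. A start was listed for 9602 of the 11496 protein-coding genes, of which 8.77% were 2-fold lower and 6.51% higher in bound. The 516 with the run had a median difference of -0.49, 165 of them (32.0%) were 2-fold lower and 15 (2.91%) higher. The 9086 without it had a median of -0.02, and 7.45% were lower. Run lengths of 5 to 7 (319 genes, median -0.46, 31.0% lower) and of 8 or more (197 genes, -0.53, 33.5%) gave similar values, while runs of 1 to 4 (598 genes, -0.11, 12.04%) lay nearer to genes whose start base is not C (8488 genes, -0.01, 7.13%). A run of 5 or more purines at the start, searched in the same way in 729 genes, had a median of -0.01 and 7.0% lower. As deposited, 117 of the 516 genes were below 0, against 751 of all 12063 genes past the filter. The median of the 516 was then 0.78, against 1.20 for all genes.

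The values changed with the position of the run within a few bases. When the same letters were searched at each distance from 60 bases before to 40 bases after the start, the share of genes 2-fold lower was 32.0% with the run at the start itself, 26.1% with it 1 base upstream and 25.7% with it 4 bases upstream. At the 80 positions farther than 10 bases from the start, the share ranged from 6.57% to 13.8% and the median from -0.34 to 0.04. Genes share windows between neighbouring positions, so these values are not independent. Of the 961 genes with the lowest differences 179 (18.6%) held the run, against 22 (2.29%) of the 961 with the highest.

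**Figure D2:**
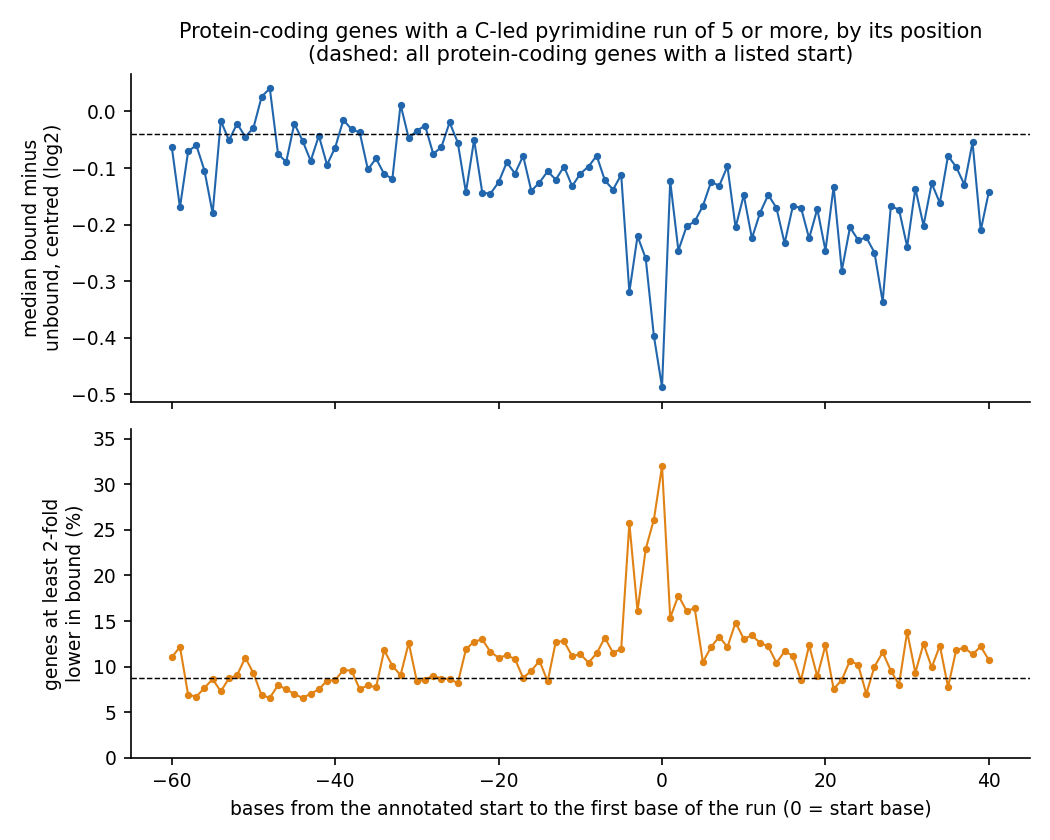
Median centred difference (upper panel, log2) and share of genes at least 2-fold lower in bound (lower panel, %) for protein-coding genes with a C-led pyrimidine run that begins at each distance in bases from the annotated start; dashed lines give all protein-coding genes with a listed start. The lowest median (-0.49) and the highest share (32.0%) fall at the start base, and the next highest shares are those 1 base (26.1%) and 4 bases (25.7%) upstream.

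The difference was also present without the main lists of translation genes. Some genes tied to translation are outside those lists and stayed in, among them DPH5 (-2.60), QARS1 (-2.56) and RPL22L1 (-2.50). Without the lists of ribosomal proteins, other TOP mRNAs and translation factors, 456 genes with the run had a median of -0.40, and 107 (23.5%) were 2-fold lower, against 7.21% of 8974 genes without it. Short genes lay lower in bound RNA whether or not they held the run, and genes with the run lay lower within every class of genomic span. Under 3 kb the medians were -1.25 with the run and -0.39 without, from 3 to 10 kb -1.12 and -0.27, from 10 to 30 kb -0.49 and -0.01, from 30 to 100 kb -0.31 and 0.06, from 100 to 300 kb -0.13 and 0.13, and from 300 kb -0.44 (20 genes) and 0.02. In 4 classes of equal size by mean level, from dim to bright, the medians with the run were -0.29, -0.41, -0.39 and -0.92, and those without it -0.20, 0.02, 0.10 and 0.06.

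Ribosomal proteins are the best known TOP messages, and all 59 measured for the cytosolic ribosome were 2-fold lower in bound RNA, with a median of -2.59 and a range of -3.45 to -1.51. All 59 were below 0 also as deposited, where this held for 751 of all 12063 genes. Their median minus that of all genes was -2.52, and -1.69 after quantile normalization, where 46 of the 59 were still 2-fold lower, and -1.72 after lowess, with 52. RPS21, a small-subunit protein, stood at 6.85 in bound, 9.04 in unbound and 7.34 in total RNA, a centred difference of -3.45. RPS13, also of the small subunit, stood at 9.47, 11.55 and 10.04 (-3.34), and RPL19, of the large subunit and the least low of the 59, at 8.96, 9.21 and 9.22 (-1.51). The unbound level was thus the highest of the 3 arrays for RPS21 and RPS13 and level with total RNA for RPL19. The 34 with the run at the first listed start had a median of -2.62 and the 16 without it -2.55, so within this family the listed start did not separate the genes. Of those 16, 11 held a run within 10 bases of the start. Ribosomal protein genes have many near-identical processed copies, and how far probes pick these up was not tested.

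The 24 other TOP messages on the list were all 2-fold lower as well, with a median of -1.92. As deposited, 20 of the 24 were below 0, against 751 of all 12063 genes. The list's median minus that of all genes was -1.85, against -1.22 after quantile normalization, where 13 of the 24 were still 2-fold lower, and -1.28 after lowess, with 14. TPT1, a growth-related TOP message, stood at 10.06 in bound, 11.86 in unbound and 10.60 in total RNA (-3.06), the ribosome assembly factor NOP53 at 8.25, 10.02 and 8.79 (-3.03), and PABPC1, which binds poly(A) tails, at 10.90, 12.13 and 11.56 (-2.49). The cyclin CCNI (-1.06) closed the list, and it lay at 0.21 as deposited, 0.51 after quantile normalization and 0.08 after lowess. These genes were listed because they are known TOP messages, with their values here already known.

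Translation initiation factors, which bring the ribosome to the start codon, divided by the run on the centred scale. Of 40 measured, 16 were 2-fold lower in bound RNA and 2 were higher, with a median of -0.43. After quantile normalization 10 were lower and 4 higher, and after lowess 10 and 3. The list's median minus that of all genes was -0.37, against -0.23 after quantile normalization and -0.27 after lowess. The split by the run was counted on the centred scale only. Of the 10 with the run, 9 were lower (median -1.60, range -2.63 to -0.93), and 1 of the 10, EIF2S3B, is a near-identical relative of EIF2S3. Of the 24 with a listed start and no run, 3 were lower and 2 higher (median -0.05).

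EIF3, the large complex that joins the small ribosomal subunit to mRNA, shows this within a single assembly. Of its 12 measured subunits 8 were lower in bound RNA. The 4 that hold the run were all lower, EIF3F at -2.63 (10.42 bound, 11.79 unbound, 10.52 total), EIF3D at -1.97 (10.01, 10.72 and 10.13), EIF3M at -1.71 (10.58, 11.02 and 10.65) and EIF3K at -1.21. EIF3K is the weakest of the 4 and lay at 0.05 as deposited and at -0.98 after quantile normalization or lowess. A second, dimmer probe set of EIF3F was at -0.95. The 3 subunits with a listed start and no run were not lower, EIF3I at -0.37 (10.13 bound, 9.24 unbound), EIF3J at -0.40 and EIF3B at 1.23 (9.76 bound, 7.27 unbound). EIF3B, a core scaffold of the complex, was 2-fold higher in bound RNA, the reverse of the 8 that were lower. No start was listed for EIF3L (-2.79), EIF3E (-2.56), EIF3H (-2.10), EIF3G (-1.57) and EIF3A (0.60).

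The same contrast appeared on the centred scale in EIF2, which carries the initiator tRNA. Its gamma subunit EIF2S3, with the run, stood at 11.19 in bound, 11.47 in unbound and 10.94 in total RNA (-1.54), and its alpha subunit EIF2S1, without the run, at 9.41, 8.34 and 9.12 (-0.18). EIF2S3 is bright. The polyamine enzyme ODC1, with fraction levels close to those of EIF2S3, went from -1.55 to -0.22 after quantile normalization and -0.57 after lowess. How far the contrast in EIF2 holds after those scalings was not tested. Other factors with the run were EIF2A (-2.22), EIF2D (-1.41), the helicase EIF4A2 (-1.26) and its partner EIF4B (-1.66). A second probe set of EIF4A2, at 6.78 in bound and 4.93 in unbound, was on the other side (0.59). The scaffolds EIF4G1 (0.59) and EIF4G2 (0.30), and EIF5B (0.81), which joins the subunits, have no run and did not reach 2-fold. Among elongation and termination factors, 6 of 14 were lower and 1 was higher. EEF2, which moves the ribosome along, stood at 11.12 in bound, 12.13 in unbound and 11.75 in total RNA (-2.27, but -0.87 after quantile normalization and -1.14 after lowess), and HBS1L, which rescues stalled ribosomes, at 9.52, 6.89 and 8.90 (1.37). EEF1A1, which delivers tRNA and carries the run, was at -1.70, but it is near the top of the array's range and was at 0.13 after quantile normalization and 0.06 after lowess, so its direction is not settled.

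**Figure D3:**
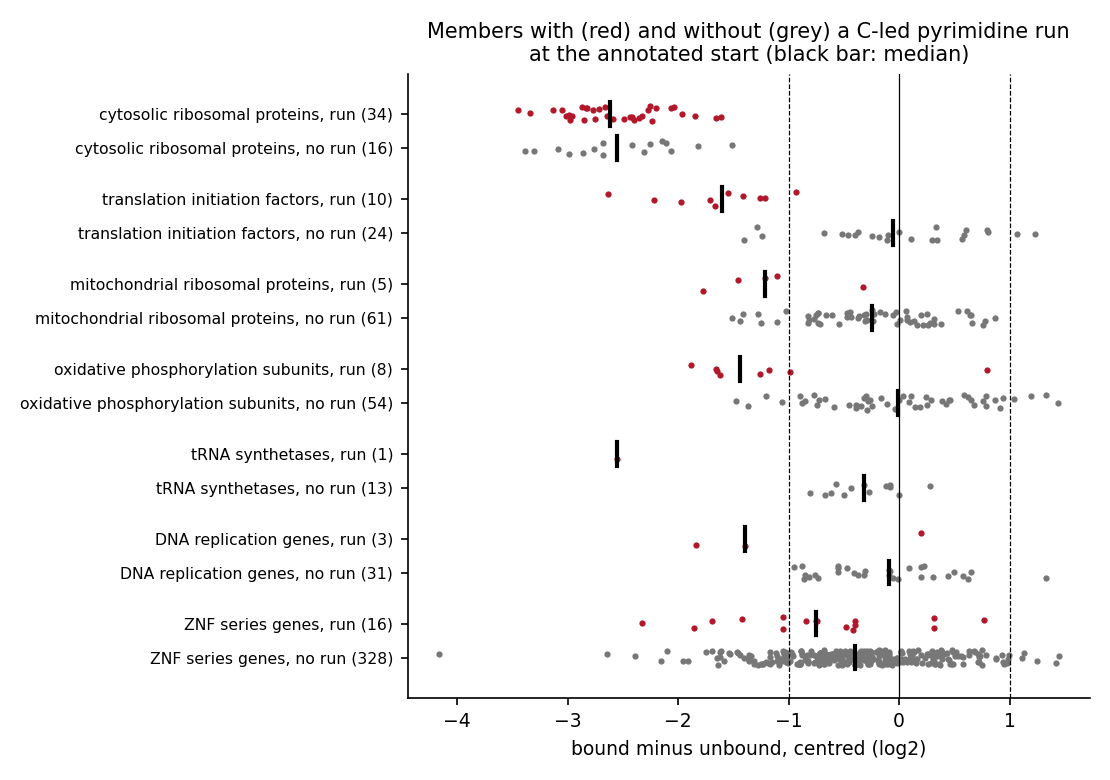
Centred difference (log2) of each member of 7 gene lists, with the C-led pyrimidine run at the first listed start in red and without it in grey; black bars are medians and dashed lines mark 2-fold. Initiation factors with the run have a median of -1.60 and those without it -0.05, while ribosomal proteins lie at -2.62 and -2.55.

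Mitochondrial genes encoded in the nucleus gave the same picture on a smaller scale. Of 73 oxidative phosphorylation subunits 14 were lower and 5 higher (median -0.25). The 8 with the run included 6 that were lower (median -1.44), and of 54 without it 4 were lower and 4 higher (median -0.01). COX7C, a small subunit of cytochrome oxidase, stood at 8.92 in bound, 9.53 in unbound and 8.76 in total RNA (-1.88), ATP5MG of the ATP synthase at 10.24, 10.60 and 9.83 (-1.62) and the complex I subunit NDUFC1 at 8.09, 6.03 and 7.15 (0.79). Of the 8 with the run, NDUFC1 lay on the bound side and ATP5PO, also of the ATP synthase, was just short of 2-fold at -0.99. Of 73 mitochondrial ribosomal proteins 13 were lower and 0 higher (median -0.31), 4 of 5 with the run (median -1.21, led by MRPL45 at -1.77, which was -0.91 after quantile normalization) and 7 of 61 without it (median -0.24).

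The lowest members of the tRNA synthetase and DNA replication lists hold the run. Of 17 cytosolic tRNA synthetases, QARS1, which loads glutamine, was the only member 2-fold lower, at 8.82 in bound, 10.12 in unbound and 9.36 in total RNA (-2.56), and it was the only member of the 14 with a listed start that holds the run. The other 13 lay between -0.80 and 0.28, among them KARS1, which loads lysine, at -0.27. Of 40 DNA replication genes 2 were lower, CDT1 (-1.84) and ORC1 (-1.39), which load the replicative helicase, and both hold the run, while the other gene with it was at 0.20. In some other lists the members with the run were not lower than the rest. The 1 member with it among SR proteins and CLK kinases was at 0.39, against a median of -0.81 for the 15 without it, and the 1 among messages with upstream reading frames was at 0.55, against -0.38 for 16. The 15 other TOP messages with the run had a median of -1.68 and the 3 without it -2.03. Further genes with the run, none of them on a list of translation genes, were DPH5, an enzyme of the diphthamide residue on EEF2, at 8.11 in bound and 9.44 in unbound (-2.60), RPL22L1, a relative of RPL22 (-2.50), PFDN5, a prefoldin subunit, at 8.75 and 9.88 (-2.40), IGBP1, a phosphatase regulator (-2.26), OXA1L, which inserts proteins into the inner mitochondrial membrane (-2.23), and FBL, the methyltransferase of box C/D particles, at 9.71 and 10.34 (-1.90). In each of DPH5, PFDN5 and FBL the unbound array gave the higher deposited level, against the general offset in favour of bound.

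The run did not fix the direction. Of the 516 genes with it, 15 were 2-fold higher in bound RNA. They included ANKRD36B (1.61), the NODAL co-receptor CRIPTO, a stem cell marker, at 8.38 in bound, 5.73 in unbound and 8.47 in total RNA (1.38), the desmosome protein DSP (1.13) and the chromatin genes EP400 (1.21), ARID1A (1.08) and KMT2B (1.03). These 3 were the only genes with the run among the 64 of the chromatin list with a listed start, and all 3 were on the bound side. The deposited level of CRIPTO in total RNA was close to that in bound RNA and well above that in unbound RNA. On the centred scale its total RNA level lay above both fractions.

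Many of the lowest protein-coding genes had no run at the listed start. ZNF124, a zinc finger gene, had the lowest difference of all protein-coding genes past the filter, at 6.45 in bound, 9.35 in unbound and 7.67 in total RNA (-4.17, or 17.9-fold). MAT2A, which makes the methyl donor S-adenosylmethionine, stood at 9.35, 11.17 and 8.69 (-3.08), METTL3, the catalytic subunit of the m6A writer, at 8.27, 9.78 and 8.09 (-2.78), and RSRP1 at 7.78, 9.43 and 5.86 (-2.91). On the centred scale total RNA lay between the fractions for ZNF124, MAT2A and METTL3 and below both for RSRP1. The ZNF series as a whole was shifted, with 74 of 411 genes lower, 8 higher and a median of -0.40. In it, 58 of 328 genes without the run were lower (median -0.40) and 6 of 16 with it (median -0.75). SR proteins, which regulate splicing, and their CLK kinases had 4 of 18 lower and 0 higher (median -0.76), led by SRSF2 at -1.76 and SRSF5 at -1.59, though SRSF5 was at -0.22 after quantile normalization and -0.59 after lowess. SRSF1 (-1.14) was at 0.17 after quantile normalization, -0.20 after lowess and 0.12 as deposited.

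FTL, the light chain of the iron store ferritin, was lower in bound RNA and has no pyrimidine run at the listed start. Its message is known to carry an iron-responsive element, a hairpin that iron regulatory proteins hold to keep ribosomes off, and the 6 letters of the hairpin loop, searched as CAGTGN in the first 50 bases, are in capitals in the window.
FTL (chr19:48965329-48965358, plus strand): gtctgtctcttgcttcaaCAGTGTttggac
The letters begin at transcribed base 39, and 6.32% of the 27305 first starts hold these letters in the same stretch. FTL stood at 9.38 in bound, 11.78 in unbound and 10.46 in total RNA (-3.66, or 12.7-fold). The 506 genes past the filter that hold the letters had a median of -0.01, and 53 of the 506 were 2-fold lower. These 506 were found among 9714 genes of any class with a listed start. Protein-coding genes with a listed start, a narrower set, had a median of -0.04, and 842 of 9602 (8.77%) were lower. Of 8 iron genes, SLC40A1, the iron exporter whose message has such a hairpin too, was the other that was lower, at 5.82, 7.12 and 3.56 (-2.57), and the uptake receptor TFRC was at -0.31. The total RNA level of SLC40A1 was at background, which stood at 3.76 on that array, while both fractions were above theirs. The cause was not tested.

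The highest difference on the bound side among the genes reported was that of ACVR2B, a receptor of activin and NODAL, which keep these cells pluripotent. It stood at 9.79 in bound, 5.96 in unbound and 8.68 in total RNA, a difference of 2.56 (5.91-fold). JMY, which nucleates actin, was 2.39 higher, or at least 2.35 because its unbound level of 3.53 was at background. CDC42BPB, a kinase that acts on myosin, stood at 9.30, 5.94 and 8.04 (2.10), the guidance receptor PLXNA1 at 8.17, 4.86 and 6.61 (2.05) and the kinesin KIF27 at 7.59, 4.23 and 5.25 (2.09). For each of these, bound RNA gave the highest deposited level and unbound RNA the lowest. Further genes of the top group were the remodellers CHD3 (2.02) and SRCAP (1.90), the guanine nucleotide exchange factor ARHGEF17 (2.03), the peptide processing enzyme CPE (1.99), the Argonaute protein AGO1 (1.96), the centrosome protein CEP250 (2.04) and the transcription factor FOXK1 (1.92).

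TTR, the serum carrier of thyroid hormone and a yolk sac and liver product, was also in this group, at 8.22 in bound, 4.82 in unbound and 3.96 in total RNA (2.14). It differs from the others in that total RNA was the lowest array. Of 7 liver or yolk sac markers, 6 passed the filter, and TTR, APOA1 (1.56) and APOB (1.14) were 2-fold higher in bound, with a median of 0.97 over the 6. APOA1 stood at 7.34 in bound, 4.52 in unbound and 4.13 in total RNA, and AFP at 7.08, 5.58 and 3.68. TTR, APOA1 and AFP thus reached higher deposited levels in both fractions than in total RNA, where 4 of the 7 markers were above background. In bulk RNA, fewer cells of a type and less RNA per cell cannot be told apart, and whether the fractions and the total RNA came from the same culture is not stated in the sources used here. The part of this in the difference of TTR was not tested.

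**Figure D4:**
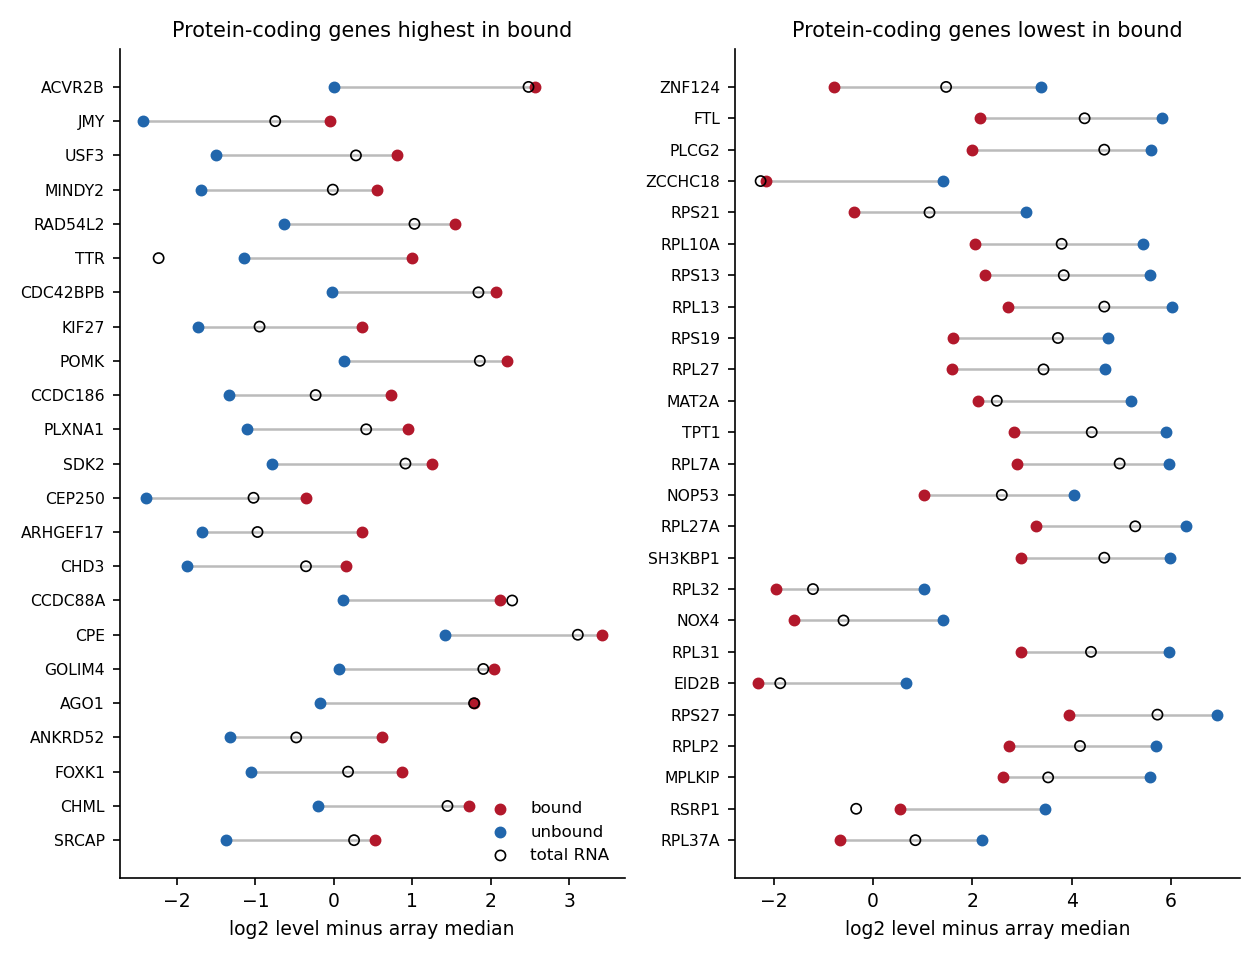
Log2 level minus array median in bound (red), unbound (blue) and total RNA (open circles) for protein-coding genes with the highest (left, 23 of the top 25) and the lowest (right, 25) centred difference. On the left total RNA lies between the fractions or near bound for most genes, with TTR as an exception at its far left, and on the right total RNA lies between the fractions for most genes, with RSRP1 and ZCCHC18 below both.

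Genes of the extracellular matrix and the cell surface lay on the bound side as groups. Most lists on this side hold long genes, and the part of genomic span in their shift was not tested. Collagens, laminins and their partners had 12 of 41 genes higher and 0 lower, with a median of 0.66 against -0.07 for all genes. NID1, which links laminin to collagen, stood at 7.31 in bound, 4.44 in unbound and 7.01 in total RNA (1.60), LAMC1, the common laminin gamma chain, at 9.17, 6.39 and 9.28 (1.52), and COL2A1 at 8.47, 5.72 and 7.37 (1.49). Fibroblast markers, of which COL1A1, COL1A2 and COL3A1 are also on this list, had 2 of 7 higher and 0 lower (median 0.50), with levels of 4.20 to 10.32 in bound and 3.56 to 7.99 in unbound, and their part in the shift was not tested. For NID1 and LAMC1 the deposited total RNA level was close to bound and far from unbound, and on the centred scale it lay above both fractions. In the LDL receptor family and the Notch receptors, 7 of 18 were higher and 0 lower (median 0.63), with NOTCH2 at 1.67, NOTCH3 at 1.52, NOTCH1 at 1.47 and LRP1 at 1.39.

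Receptor kinases and TGF-beta receptors had 6 of 28 higher and 0 lower (median 0.35), led after ACVR2B by the insulin receptor INSR (1.69) and ERBB2 (1.5). Plexins, semaphorins and ephrin receptors, which guide cells, had 7 of 38 higher and 0 lower (0.34), and cadherins and protocadherins 8 of 52 higher and 1 lower (0.39), led by the large cadherins CELSR2 (1.47) and CELSR3 (1.38, with its unbound level at background). Secretory messages were not all alike. Chaperones of the endoplasmic reticulum had 2 of 18 higher and 0 lower (0.28), ERO1A (1.54) and UGGT1 (1.35), while solute carriers, which are membrane transporters, had 12 of 220 higher and 15 lower (0.02), and vesicle coats with the translocon 1 of 37 higher and 5 lower (-0.10). The shares higher were 11.1%, 5.45% and 2.70%, against 6.35% of all genes. The shares lower were 0%, 6.82% and 13.5%, against 9.91%.

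Inside the cell, other lists leaned to bound in the same way. Chromatin remodellers and lysine methylases had 22 of 73 higher and 1 lower (median 0.35), with KMT2D at 7.67 in bound, 4.51 in unbound and 6.20 in total RNA (1.89) and SETD9 as the gene that was lower (-1.17, and 0.09 as deposited). KMT2A (1.47) had a second, dim probe set at -0.66. Kinesins, dyneins and myosins had 12 of 52 higher and 1 lower (0.35), KIF5C (1.86) and MYO9B (1.55) among the higher and KIF18A (-1.33) as the lower. Large ubiquitin ligases had 5 of 24 higher and 1 lower (0.34), with HECTD4 at 1.75 (0.74 for a second probe set), RNF213 at 1.5, UBR4 at 1.43 and HUWE1 at 1.30.

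Other lists stayed near all genes or below them. Proteasome subunits had 0 of 31 higher and 1 lower, PSMB4 at -1.06 (0.20 as deposited and -0.33 after quantile normalization), with a median of 0.07. None of the 26 with a listed start holds the run. Small spliceosomal proteins had 1 higher and 3 lower of 25 (0.06), ubiquitin-conjugating enzymes 0 and 1 of 23 (0.07), mitotic spindle and kinetochore genes 3 and 1 of 34 (0.06) and subunits of RNA polymerase II 1 and 0 of 12 (0.17). The cytosolic chaperonin, which folds actin and tubulin, was lower with 4 of 8 past 2-fold and 0 higher (median -1.02), led by CCT8 at 7.95 in bound, 8.20 in unbound and 8.18 in total RNA (-1.52). CCT3 (-1.17) and CCT2 (-1.13) lay at 0.09 and 0.13 as deposited, and 1 of the 8 was still 2-fold lower after quantile normalization or lowess. Tubulins and the gamma-tubulin complex had 5 lower and 1 higher of 19 (-0.23), with TUBA1B at -1.45, and TUBB at -1.43, which turned to 0.21 after quantile normalization and was -0.11 after lowess. Glycolysis enzymes had 2 higher, PFKL (1.21) and TPI1 (1.20), and 2 lower, LDHB (-1.42) and GAPDH (-1.61), of 16. Their median was 0.52 below that of all genes but 0.21 above it after quantile normalization and 0.12 above after lowess, where GAPDH also turned to 0.15 and 0.02, and LDHB was at 0.22 after quantile normalization and -0.22 after lowess.

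Ubiquitin-specific proteases leaned to bound by their median of 0.26, which is 0.33 above that of all genes, and 0.24 above it after lowess. Of the 43, 4 were higher (9.30%, against 6.35% of all genes) and 1 was lower (2.33%, against 9.91%). After lowess 1 of the 43 was higher, against 6.37% of all genes, so the count of higher genes does not carry the lean. Mitochondrial import genes had 0 higher and 2 lower of 19 (-0.04). CCR4-NOT and decay factors had 2 and 2 of 35 (-0.10), among them the decay helicase UPF1 (1.17) and kinase SMG1 (1.28) on the bound side. Replication-dependent histones, whose near-identical copies share probes, had 1 higher and 5 lower of 51 (-0.27), with H3C12 at 1.68 and H2AC14 at -1.49.

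The genes of pluripotency were split and on balance near all genes, with 3 of 31 higher, 1 lower and a median of 0.02. CRIPTO, TRIM71 (1.03), a let-7 target and RNA-binding protein, and the surface protein EPCAM (1.02) were higher. The homeobox gene OTX2 was lower at -1.06 but 0.21 as deposited and -0.82 after quantile normalization. On the centred scale LIN28A (-0.74) and its paralog LIN28B (0.85) did not reach 2-fold and lay on opposite sides. As deposited all 31 pluripotency genes were above 0, so the opposite sides rest on the centring. LIN28A is bright, and its side after quantile normalization or lowess is not given here. Messages with regulatory upstream reading frames had 3 of 18 lower, ODC1, the entry enzyme of polyamine synthesis, at 11.15 in bound, 11.44 in unbound and 10.75 in total RNA (-1.55), the stress factor ATF4 at 10.34, 10.44 and 9.60 (-1.36) and SRM (-1.14, and 0.12 as deposited). OAZ2, an antizyme that restrains ODC1, was higher at 1.24. ODC1 and ATF4 had nearly equal deposited levels in the fractions, below the general offset, and neither was 2-fold lower after quantile normalization (-0.22 and -0.76) or lowess (-0.57 and -0.80).

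**Figure D5:**
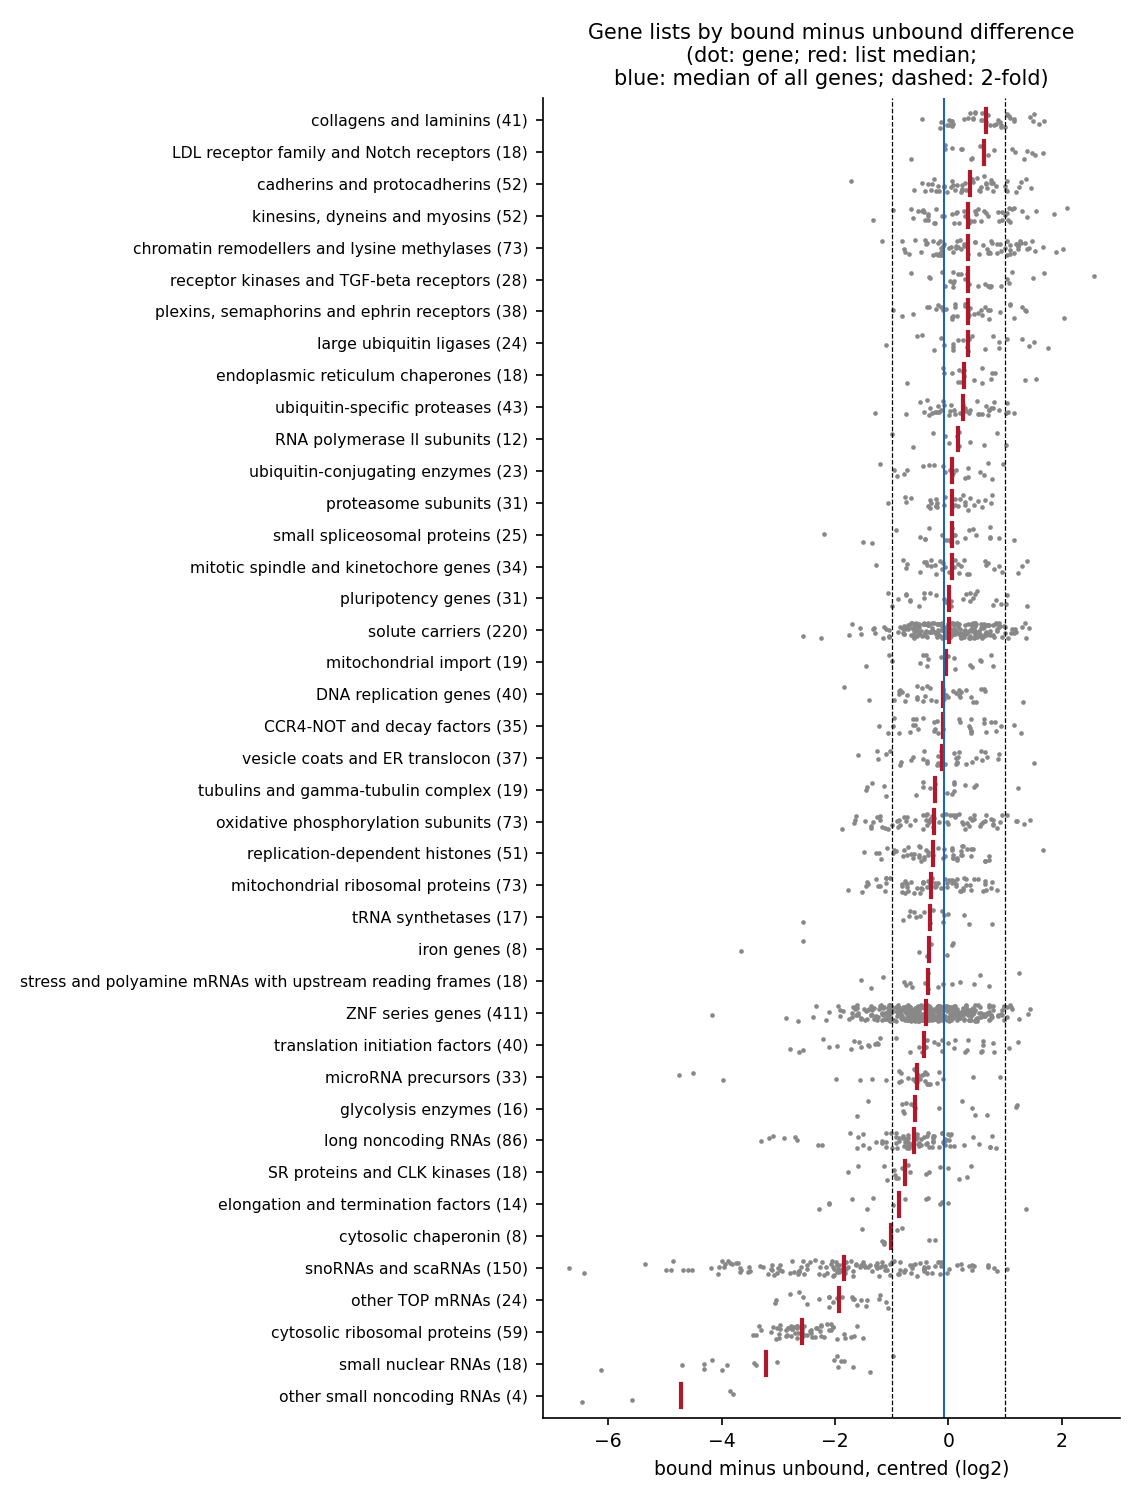
Centred difference (log2) of each gene past the filter in the gene lists described, ordered by list median (red bar), with the number of genes in brackets, the median of all genes as a blue line and 2-fold as dashed lines. Collagens and laminins (0.66) and the LDL receptor and Notch list (0.63) have the highest medians, and ribosomal proteins (-2.59), small nuclear RNAs (-3.21) and other small noncoding RNAs (-4.71) the lowest.

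RNAs that are not translated made up the far end of the unbound side. Small nuclear RNAs of the spliceosome had 17 of 18 lower and 0 higher (median -3.21, or -2.76 with genes at background in bound placed at their bound), and RNU5F-1 was just short of 2-fold at -0.98. RNU4-1, a U4 gene, stood at 5.13 in bound, 9.99 in unbound and 6.40 in total RNA (-6.13). Of 150 small nucleolar and Cajal body RNAs, 106 were lower and 1 was higher (median -1.84, or -1.78 at the bounds). SNORD13, which guides acetylation of ribosomal RNA, stood at 3.58, 9.01 and 7.92 (at least 5.87 lower in bound), and SNORD117 at 7.59, 5.29 and 4.26 (1.04 higher). SNORD13 was thus at background in bound only, and SNORD117 was brightest in bound. The RNase P RNA RPPH1 stood at 5.95, 11.16 and 8.86 (-6.47), and the RNase MRP RNA RMRP at 7.89, 12.21 and 10.51 (-5.58). The telomerase RNA TERC was at -3.81 and the vault RNA VTRNA1-3 at least 2.56 lower in bound. Among 86 long noncoding RNAs 21 were lower and 0 higher (median -0.60), from EPB41L4A-AS1 (-3.30) and ZFAS1 (-2.90), which host small nucleolar RNAs, to TUG1 (0.84).

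Of 33 microRNA precursor genes past the filter 7 were lower and 0 higher (median -0.55), and 3 stood far below the rest. The mature sequences that RefSeq (GRCh38.p14) lists for them are shown with the seed, bases 2 to 8, in capitals.
hsa-miR-302a-3p (chr4:112648186-112648208, minus strand): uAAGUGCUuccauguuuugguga
hsa-miR-302b-3p (chr4:112648489-112648511, minus strand): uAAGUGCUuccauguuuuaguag
hsa-let-7f-5p (chr9:94176353-94176374, plus strand): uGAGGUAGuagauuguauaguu
miR-302a-3p and miR-302b-3p, from the cluster that marks pluripotent cells, share the seed AAGUGCU, and let-7f-5p belongs to the family that LIN28A keeps low. MIR302A stood at 4.34 in bound, 7.82 in unbound and 6.24 in total RNA (at least 4.69 lower in bound), MIR302B at 4.07, 7.32 and 6.92 (at least 4.18 lower) and MIRLET7F1 at 5.0, 7.71 and 4.16 (-3.97). Both MIR302 genes were at background in bound, and MIRLET7F1 was above background on all 3 arrays. The annotation ties these probe sets to the precursor genes, so they give no separate level of the mature arms.

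Genes on the 2 sides differed in the length of the gene. The median genomic span was 61.5 kb for genes 2-fold higher in bound, 12.7 kb for those lower and 30.2 kb for all genes past the filter. Over the 11496 protein-coding genes the logarithm of the span and the difference had a Pearson correlation of 0.21 and the same value by rank, a description across genes of the same 2 arrays. The median difference was -0.38 under 3 kb, -0.31 from 3 to 10 kb, -0.04 from 10 to 30 kb, 0.06 from 30 to 100 kb, 0.13 from 100 to 300 kb and -0.02 from 300 kb. The span counts introns, and no length of mRNA or protein was used here. Most lists on the bound side had long spans, with a median of 90.1 kb for collagens and laminins and 109 kb for cadherins and protocadherins. It was 70.9 kb for the chromatin list and 154 kb for large ubiquitin ligases. Endoplasmic reticulum chaperones, also on the bound side, had a median of 17.4 kb. The part of span in the shift of a list was not tested.

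The total RNA array, which the difference does not use, lay between the fractions for many genes apart. On the centred scale this held for 450 of the 766 genes higher in bound (58.7%) and for 896 of the 1196 lower (74.9%), against 4645 of all 12063 (38.5%). Genes chosen for lying 2-fold apart leave a wider interval for the total, so these shares are a description and not a difference from all genes. They also moved with the scaling, to 71.3% and 69.5% after quantile normalization and to 83.4% and 62.8% as deposited. Total RNA was nearer to bound than to unbound for 589 of the 766 and for 826 of the 1196, which is to say on the bound side in both directions. The kit used for total RNA differed from that of the fractions, and its part in these positions cannot be told apart from that of the RNA source.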

How the data were processed

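The authors deposited a log2 level for every probe set on 3 arrays, made with Partek 6.5 and RMA per the submitters' processing notes. The sources used here do not give how the arrays were scaled to each other. Groups follow the sample type in the labels. Of 33297 probe sets, 19460 list 1 gene symbol in the platform annotation held by GEO, 1754 list several and 12083 are not listed. Gene IDs of 19429 matched RefSeq (GRCh38.p14), with 0 symbols changed, and 769 genes had several probe sets. Starts matched 9714 of the 12063 genes. The number of arrays and the signal over background limit the precision.

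Genes named are the 25 highest and 25 lowest protein-coding genes, the 10 lowest noncoding RNAs, the 3 highest and 3 lowest members of each gene list and a fixed set of controls. Further list members, genes with a run at the start and second probe sets were chosen after their values were seen. Members, lists and tests were chosen with earlier results of these data known. Of the 25 highest, 2 are not reported here. Classes of protein length were planned, but no protein table was used, and genomic span took their place. The alternatives were other scalings (including lowess with span 0.3), filters, probe set rules, thresholds of 1.5-fold and 3-fold, and other definitions of the run. Scripts were tested on simulated data. Tools were Python 3.11.15, with scipy 1.17.1, numpy 2.4.6, statsmodels 0.14.6, pandas 2.3.3 and matplotlib 3.10.9.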

Additional observations from a re-analysis of the deposited data

How the results depend on the processing

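No paired analysis was possible because each group has 1 array, and for the same reason no array could be left out. Of 26 lists whose median was at least 0.25 from that of all genes, 25 kept their side under the 7 settings that can change them (a constant shift of an array cannot), the exception being glycolysis enzymes (0.21 above all genes after quantile normalization, 0.12 after lowess). Genes 2-fold higher in bound numbered 7404 as deposited, 2130 at 1.5-fold and 102 at 3-fold, against 766, and genes lower 188, 2668 and 468, against 1196. The share of genes with a start run that were lower in bound (32.0%) was 7.17% as deposited, 25.5% after quantile normalization, 27.7% after lowess, 22.8% with no level filter and 12.9% with a run anywhere within 10 bases of the start. It was 26.4% with any listed start and 23.5% without the translation lists, both added after the data were seen, as was the use of genomic span. Of 194 named genes that were 2-fold apart, 187 kept their side under those of the 7 settings that gave them a value, which were all 7 for 157 genes, and 25 were under 2-fold after quantile normalization or lowess. For a single gene, however, the filters and the restriction to genes with 1 probe set only shift the array medians slightly. They could not turn a gene that was 2-fold apart. Only quantile normalization, lowess and, for genes with several probe sets, their mean could do so. The deposited values add the same 1.26 to each gene, which alone turns the genes between -1.26 and -1. These were CCNI (0.21), CCT2 (0.13), CCT3 (0.093), CNOT10 (0.20), CNOT4 (0.034), EIF3K (0.052), H4C5 (0.045), HERC4 (0.17), HNRNPA1 (0.16), OTX2 (0.21), PSMB4 (0.20), SEC24B (0.028), SETD9 (0.089), SRM (0.12), SRSF1 (0.12), SSR2 (0.0011), TIMM29 (0.22) and UBE2V1 (0.061). After quantile normalization the other side was taken by CCNI (0.51), EEF1A1 (0.13), GAPDH (0.15), LDHB (0.22), SRSF1 (0.17) and TUBB (0.21), after lowess by CCNI (0.083), EEF1A1 (0.059) and GAPDH (0.018), and with the mean of all probe sets by SNRPG (-0.38). The cause was not tested. Classes of protein length were not run. Total RNA has no lowess value, since that trend was fitted to the fractions. Of the genes 2-fold apart, 25 of those higher and 78 of those lower were at background on the dimmer array, and 15 and 63 of them stayed 2-fold apart against that array's background level.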

Other observations

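Probe sets that name no single gene were left out above, and their values lay lower in bound RNA than those of genes. Of 1071 past the level filter that list several symbols, 22 were 2-fold higher and 198 (18.5%) lower, with a median of -0.21. Of 6148 for which no gene is listed, 301 were higher and 1372 (22.3%) lower, with a median of -0.45. By gene class in RefSeq, 146 long noncoding RNA genes had a median of -0.57 with 35 lower and 5 higher, and 173 transcribed pseudogenes a median of -0.33 with 29 lower and 3 higher, against -0.04 for protein-coding genes.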
